A study of Mus musculus with 4 samples.

Results

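The genes described here are 34 mouse genes of DNA replication and cell division, listed by symbol and matched to array probes through RefSeq accessions. They were taken from 23462 genes with a named probe, and the rule that picks them uses no signal value. The list was, however, chosen with earlier results of these data known. Agilent single-colour arrays (Cy3) measured total RNA of whole brain, with 1 array for each of 4 groups. The groups were wild-type mice given phosphate-buffered saline (PBS), Nav1.8CreROSA26DTA mice given PBS, wild-type mice given lipopolysaccharide (LPS), and Nav1.8CreROSA26DTA mice given LPS. LPS, the glycolipid that coats Gram-negative bacteria and that Toll-like receptor 4 senses, was injected intraperitoneally at a dose of 20 mg/kg, and the brains were taken 12 hours later. In Nav1.8CreROSA26DTA mice, Cre is expressed under the control of Scn10a, which encodes the sodium channel Nav1.8, and the diphtheria toxin A it turns on ablates sensory neurons of that lineage, most of them nociceptors, whose cell bodies lie outside the brain. The labels do not give the age or number of the animals, nor whether RNA was pooled, so group and animal cannot be told apart.

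DNA replication starts at origins licensed in G1, when CDC6 helps to load the MCM2-7 ring, which later unwinds DNA together with CDC45 while PCNA clamps the polymerase. Cyclins and CDK1 then drive the cell into mitosis, where Polo-like and Aurora kinases, kinetochore proteins and spindle motors separate the chromosomes until the anaphase-promoting complex ends the division. Most neurons of the adult brain have left the cell cycle, and the cycling cells of the tissue are mainly oligodendrocyte precursors, neural progenitors and, in inflammation, microglia, endothelium or infiltrating blood cells.

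Genes of the first phase are classically driven by E2F factors, and genes of the later phase by complexes that bind a cell cycle homology region (CHR) and CCAAT boxes. RefSeq promoter sequences on GRCm38.p6, 300 bases long from 250 bases before to 50 after the gene start, were at hand for 27 of the 34 genes and for 32851 promoters in all. An E2F-type element (TTTCCCGC or TTTGGCGC, on either strand) stood in the promoters of 5 of the 27 genes, Cdc6, Mcm3, Mcm5, Mcm6 and Mcm7, or 18.5%, against 1.56% of all promoters. The CHR (TTTGAA, on either strand) stood in 13 of 27, or 48.1%, against 17.9% of all promoters, and CCAAT (on either strand) in 23 of 27, or 85.2%, against 37.4%. The 27 genes have 28 promoters, and a gene was counted if any of its promoters held the element, whereas the share of all is per promoter. Mcm7 has another promoter, without the E2F-type element. A match of letters is a description and does not show that a factor binds there. The promoters of Mcm3 (chr1:20820263-20820562, minus strand) and Mcm6 (chr1:128359656-128359955, minus strand) are given as examples of E2F-type elements in genes of the replicative helicase, whose signal was higher on both LPS arrays than on both PBS arrays. Each is written 5′ to 3′ with the E2F-type, CHR and CCAAT letters in capitals, and no element shares letters with another in the promoters shown, except a pair of CCAAT boxes on opposite strands in Ube2c.
Mcm3: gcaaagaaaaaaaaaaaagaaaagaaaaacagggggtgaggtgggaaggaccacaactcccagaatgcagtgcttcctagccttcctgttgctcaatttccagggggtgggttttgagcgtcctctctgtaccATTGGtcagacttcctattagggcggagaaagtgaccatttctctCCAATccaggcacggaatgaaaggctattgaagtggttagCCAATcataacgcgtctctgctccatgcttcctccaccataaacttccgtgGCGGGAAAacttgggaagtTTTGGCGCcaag
Mcm6: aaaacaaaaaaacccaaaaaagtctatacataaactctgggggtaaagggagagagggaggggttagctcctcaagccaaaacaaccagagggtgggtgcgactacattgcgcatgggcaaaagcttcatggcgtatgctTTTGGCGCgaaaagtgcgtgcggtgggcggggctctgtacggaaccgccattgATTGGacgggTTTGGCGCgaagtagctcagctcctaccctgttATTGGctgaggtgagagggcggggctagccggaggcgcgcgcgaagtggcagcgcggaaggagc

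In Mcm6 the E2F-type elements began 110 and 47 bases before the gene start, and in Mcm3 both lay after it. Mcm5 and Mcm7, which also carry an E2F-type element, were higher on both LPS arrays too. Cdc6 carries one, but its LPS arrays did not both lie above both PBS arrays. Mcm2, Cdc45 and Pcna, without a match in these 300 bases, had both LPS arrays above both PBS arrays. A link between this element and LPS was not tested. The promoters of Mki67 (chr7:135716330-135716629, minus strand), Top2a (chr11:99024140-99024439, minus strand) and Ube2c (chr2:164769679-164769978, plus strand) are given because these late-phase genes, well above background on both Nav1.8CreROSA26DTA arrays, had the largest upward genotype differences after PBS among the 30 genes tested. They carry the CHR and no exact match to TTTCCCGC or TTTGGCGC within these 300 bases, with the same letters in capitals. Looser forms of an E2F-type element were not searched for.
Mki67: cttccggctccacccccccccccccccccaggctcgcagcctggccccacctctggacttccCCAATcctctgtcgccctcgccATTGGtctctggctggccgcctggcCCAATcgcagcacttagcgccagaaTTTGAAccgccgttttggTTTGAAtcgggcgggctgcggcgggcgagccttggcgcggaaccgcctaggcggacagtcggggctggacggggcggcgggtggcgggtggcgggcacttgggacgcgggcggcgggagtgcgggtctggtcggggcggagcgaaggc
Top2a: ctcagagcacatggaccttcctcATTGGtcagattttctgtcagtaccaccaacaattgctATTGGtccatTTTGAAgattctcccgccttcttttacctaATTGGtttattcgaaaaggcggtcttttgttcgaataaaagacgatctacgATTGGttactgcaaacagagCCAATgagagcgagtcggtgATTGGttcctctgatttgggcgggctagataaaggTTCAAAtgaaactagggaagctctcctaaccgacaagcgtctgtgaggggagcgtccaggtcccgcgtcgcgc
Ube2c: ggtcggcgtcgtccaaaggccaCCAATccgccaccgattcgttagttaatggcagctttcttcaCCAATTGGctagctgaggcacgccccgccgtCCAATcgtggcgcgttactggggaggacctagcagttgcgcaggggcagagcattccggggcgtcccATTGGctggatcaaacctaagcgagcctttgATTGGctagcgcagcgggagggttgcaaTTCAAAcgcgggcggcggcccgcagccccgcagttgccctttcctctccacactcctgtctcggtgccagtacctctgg
The CHR nearest to the gene start began 98 bases before it in Mki67, 23 bases before it in Top2a and 29 bases before it in Ube2c. Among other genes higher on both Nav1.8CreROSA26DTA arrays than on both wild-type arrays, Plk1 carries the CHR, and Birc5 and Rrm2 have no exact match to it. For the rest of these genes, Ccna2, Foxm1 and Kif20a, no promoter sequence was at hand. Aurka and Ccnb2 carry it with averaged genotype differences of 0.07 and −0.13. A link between these elements and the genotype was not tested.

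All levels below are scaled signals, that is spot intensities brought to a shared 75th percentile of 617 on every array, and differences are on the log2 scale. Between 66.5% and 69.5% of spots per array were well above background and 0 were saturated. Of 16 genes fixed as marks of whole brain, such as Snap25, Gad1, Mbp and Aqp4, 15 were well above background on all 4 arrays, and the choroid plexus gene Ttr was so on 1. The 4 arrays lay on 1 slide with their positions tied to the groups, so a position effect and a group effect cannot be told apart. The median SD between repeated spots of a probe was 0.0418 to 0.0456 (log2, 300 probes with 10 spots each), which is error within an array. The 34 genes had 49 probes of 1 spot each, 21 genes with 1 probe and 13 with several. Where a gene had several, the probe that passed background on the largest number of arrays was taken, and among equals the brightest. By that probe 28 genes were well above background on all 4 arrays, 2 (Top2a and Aurkb) on some, and 4 on 0. The 4 genes not well above background on any array were Cdk1, the kinase that drives entry into mitosis, Ccne2, which encodes cyclin E2, the checkpoint kinase gene Bub1 and the spindle motor gene Kif11, so their response could not be measured here. In whole-brain RNA, fewer cells of a type and less RNA per cell cannot be told apart.

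LPS was compared with PBS first. Averaged over both genotypes, 1 of the 34 genes rose and 0 fell: Mcm4, a subunit of the MCM2-7 helicase, rose by 0.50 ± 0.10 (limma's standard error; adjusted p = 0.0158, Benjamini-Hochberg over 17132 genes). Over all genes tested, 5.62% rose and 4.54% fell by the same test, so the share of 1 in the 30 genes that could be tested was not above the background. At an unadjusted p under 0.05, limma picked 10 of the 30, against 23.6% of all genes. The median difference of the 30 was 0.27, beside −0.03 for all genes tested. With normexp background correction it was 0.06, beside −0.06 for all genes tested. Normexp added an offset of 50 to every signal, which by itself shrinks the log2 differences of dim genes. Of the 28 genes measured on every array, 15 had both LPS arrays above both PBS arrays (21.6% of all genes measured on every array) and 2, Ccnb1 and Ccne1, had both below (29.7%). Most of the replication genes are among the 15, while the cyclins are spread over both directions.

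The 9 origin licensing and replication fork genes mostly had small upward differences after LPS. In 8 of the 9, which are part of the 15 above, both LPS arrays lay above both PBS arrays (21.6% of all genes measured on every array). The exception was Cdc6, and the median averaged difference of the 9 was 0.26. Mcm4 had scaled signals of 735 in wild-type PBS, 671 in Nav1.8CreROSA26DTA PBS, 1022 in wild-type LPS and 970 in Nav1.8CreROSA26DTA LPS. Its LPS response was therefore nearly the same in both genotypes, 0.48 in wild-type and 0.53 in Nav1.8CreROSA26DTA. The call did not hold with any 1 of the 4 arrays left out, where limma gave differences of 0.44 to 0.57 and adjusted p of 0.0867 to 0.203, nor without limma's intensity trend (adjusted p = 0.150). Mcm6, another subunit of the ring, had scaled signals of 674 in wild-type PBS, 979 in Nav1.8CreROSA26DTA PBS, 1168 in wild-type LPS and 1147 in Nav1.8CreROSA26DTA LPS. The wild-type PBS array stood below the other three, and the averaged difference was 0.51 ± 0.14 (limma, adjusted p = 0.0502). Without Nav1.8CreROSA26DTA PBS it passed at 0.78 (adjusted p = 0.0339), and without wild-type PBS it was 0.24 (adjusted p = 0.344).

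The remaining fork genes had smaller differences, and none passed the test. Mcm3 had 169 in wild-type PBS, 211 in Nav1.8CreROSA26DTA PBS, 225 in wild-type LPS and 280 in Nav1.8CreROSA26DTA LPS, a step of 0.41 with LPS in each genotype (averaged 0.41 ± 0.14, limma adjusted p = 0.109). The 3 Mcm3 probes, all well above background on every array, gave LPS differences of 0.27 to 0.42 in wild-type and 0.36 to 0.80 in Nav1.8CreROSA26DTA. Mcm2 ran from 54.1 in wild-type PBS to 79.7 in Nav1.8CreROSA26DTA LPS, with an averaged difference of 0.37 ± 0.21 (limma adjusted p = 0.327). Pcna, the sliding clamp of the polymerases, had equal signals in both genotypes after PBS (2470 on both arrays) and 2935 and 2987 after LPS. Its averaged difference of 0.26 ± 0.09 did not pass (limma adjusted p = 0.117). Mcm7 (0.25), Mcm5 (0.22) and Cdc45 (0.13), the helicase partner, had averaged differences of less than 0.3 with adjusted p from limma of 0.196, 0.424 and 0.834, and Cdc45 turned to −0.10 with normexp. Cdc6, the loader of the ring, was the member of the group whose responses differed in sign, 0.23 in wild-type and −0.55 in Nav1.8CreROSA26DTA, with an average of −0.16, or 0.55 as the mean of both its probes, the other of which was not well above background on any array.

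**Figure D1:**
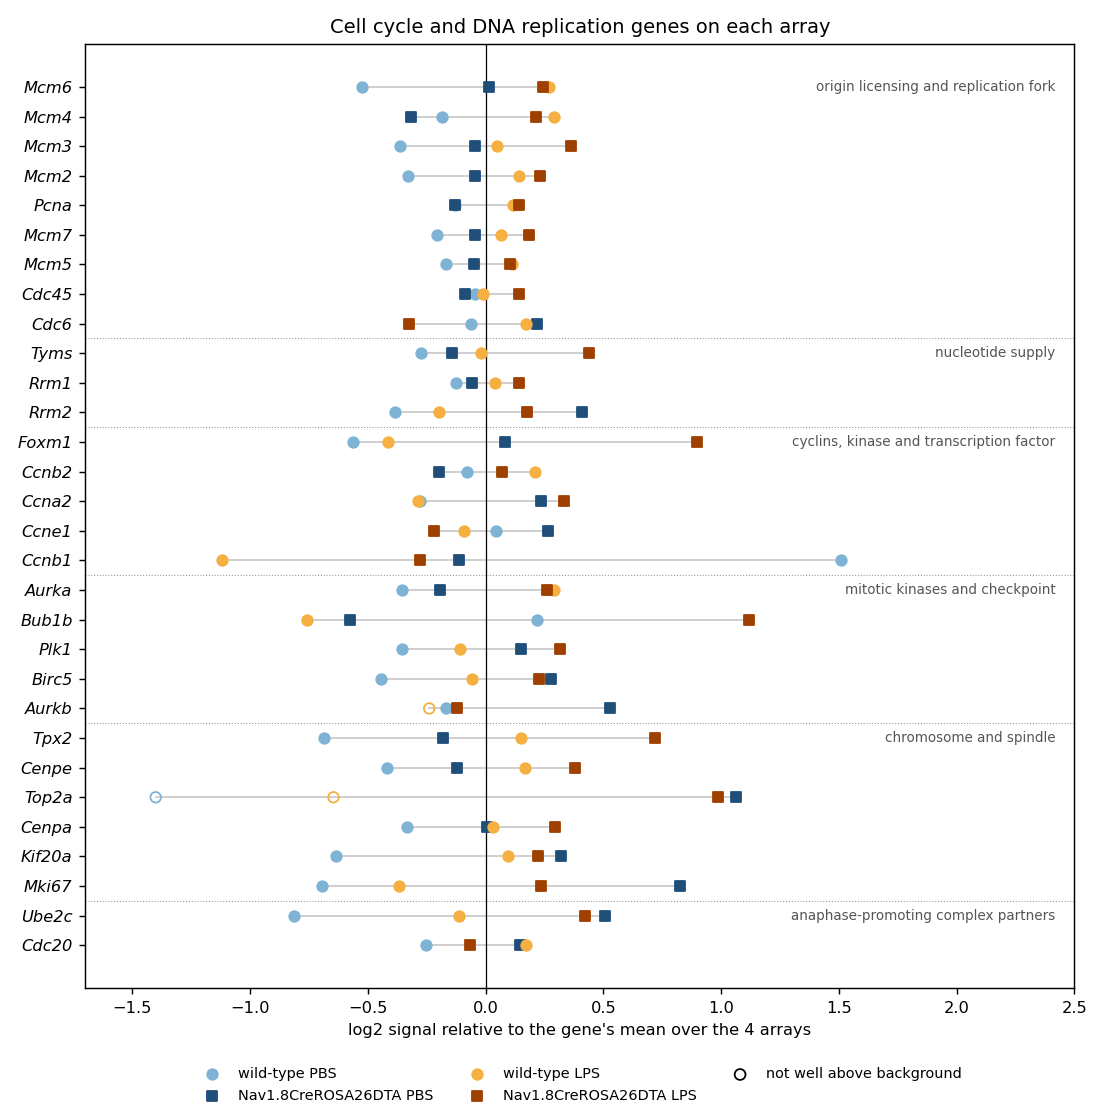
Scaled log2 signal of each of the 30 genes well above background on at least 2 arrays, relative to the gene's own mean over the 4 arrays, with 1 point per array and genes grouped by role between dotted lines (open points were not well above background). In the top group the 2 LPS points lie to the right of the 2 PBS points in 8 of 9 genes (21.6% of all genes measured on every array). Ccnb1, Bub1b and Top2a have the widest ranges.

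The 3 nucleotide supply genes had no member past the test with LPS. Tyms, thymidylate synthase, was at 68.8 in wild-type PBS, 75.4 in Nav1.8CreROSA26DTA PBS, 82.3 in wild-type LPS and 113 in Nav1.8CreROSA26DTA LPS, so both LPS arrays lay above both PBS arrays (averaged 0.42 ± 0.20, limma adjusted p = 0.242). Rrm1, the large subunit of ribonucleotide reductase that is present through much of the cycle, was at 375, 392, 420 and 451 in the same order, an averaged difference of 0.18 ± 0.12. Rrm2, the small subunit made mainly in S phase, had LPS differences of 0.18 in wild-type and −0.23 in Nav1.8CreROSA26DTA and an average of −0.02 ± 0.18.

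Of the 7 cyclin, kinase and transcription factor genes, 5 were tested and 0 passed with LPS, with a median difference of 0.04. Ccnb1, the gene of cyclin B1, had the widest range of the 34, with 89.4 in wild-type PBS, 29.0 in Nav1.8CreROSA26DTA PBS, 14.4 in wild-type LPS and 25.9 in Nav1.8CreROSA26DTA LPS. The wild-type PBS array alone was high, and the averaged difference was −1.40 ± 0.49 (limma adjusted p = 0.122). Its 2 other probes were not well above background on any array, so this range rests on 1 spot per array. Ccne1, the gene of cyclin E1, which acts at the entry into S phase, was at 1812, 2112, 1648 and 1511 in the same order and differed by −0.31 ± 0.11 (limma adjusted p = 0.125). Ccnb2 (cyclin B2) differed by 0.28 and Ccna2 (cyclin A2) by 0.04. Foxm1, a transcription factor of the late phase, differed by 0.15 in wild-type and 0.82 in Nav1.8CreROSA26DTA (averaged 0.48 ± 0.25, limma adjusted p = 0.292).

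Among mitotic kinases and checkpoint genes, Aurka, the Aurora kinase of the spindle poles, was nearest to the threshold. It was at 136 in wild-type PBS, 152 in Nav1.8CreROSA26DTA PBS, 213 in wild-type LPS and 209 in Nav1.8CreROSA26DTA LPS, so the groups did not overlap, and it differed by 0.55 ± 0.15 (limma adjusted p = 0.0553). Plk1, the Polo-like kinase, differed by 0.20 ± 0.16, and Birc5, which encodes the chromosomal passenger protein survivin, by 0.17 ± 0.16. Aurkb, the Aurora kinase of the chromosomal passenger complex, was not well above background in wild-type LPS, and its averaged difference was −0.36 ± 0.38 (limma adjusted p = 0.636). In the chromosome and spindle group the kinetochore motor gene Cenpe also had both LPS arrays above both PBS arrays, with 122 and 149 after PBS in wild-type and Nav1.8CreROSA26DTA against 183 and 211 after LPS, and differed by 0.54 ± 0.15 (limma adjusted p = 0.0574). Tpx2, the activator of Aurora A on spindle microtubules, had the largest upward averaged difference of the 30, 0.87 ± 0.30 (limma adjusted p = 0.112), from 15.8, 22.4, 28.2 and 41.9 on the arrays in the order given above. Cenpa, the centromeric histone H3, differed by 0.33 ± 0.19, and the motor gene Kif20a by 0.32 ± 0.38, or −0.13 with normexp. Ube2c and Cdc20, the partners of the anaphase-promoting complex, differed by 0.31 ± 0.35 (−0.12 with normexp) and 0.11 ± 0.20.

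Within each genotype, 1 array stood against 1, so there was no test, and a difference of at least 2-fold was counted among genes well above background on both arrays. In wild-type, 0 of 28 genes were at least 2-fold higher with LPS (3.41% of all genes) and 1, Ccnb1, was lower (0.618%), at −2.63. In Nav1.8CreROSA26DTA, 1 of 30, Bub1b, was higher (3.1%), at 1.69, and 0 were lower (1.42%). The median LPS difference was 0.28 in wild-type and 0.21 in Nav1.8CreROSA26DTA, beside −0.02 and −0.04 for all genes, and the latter of the medians was −0.01 with normexp. Both responses were above 0 in 17 of the 28 genes measured on every array (28.8% of all genes) and both below 0 in 2 (38.9%). Thus the differences of most genes with LPS were smaller than 2-fold in either genotype.

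**Figure D2:**
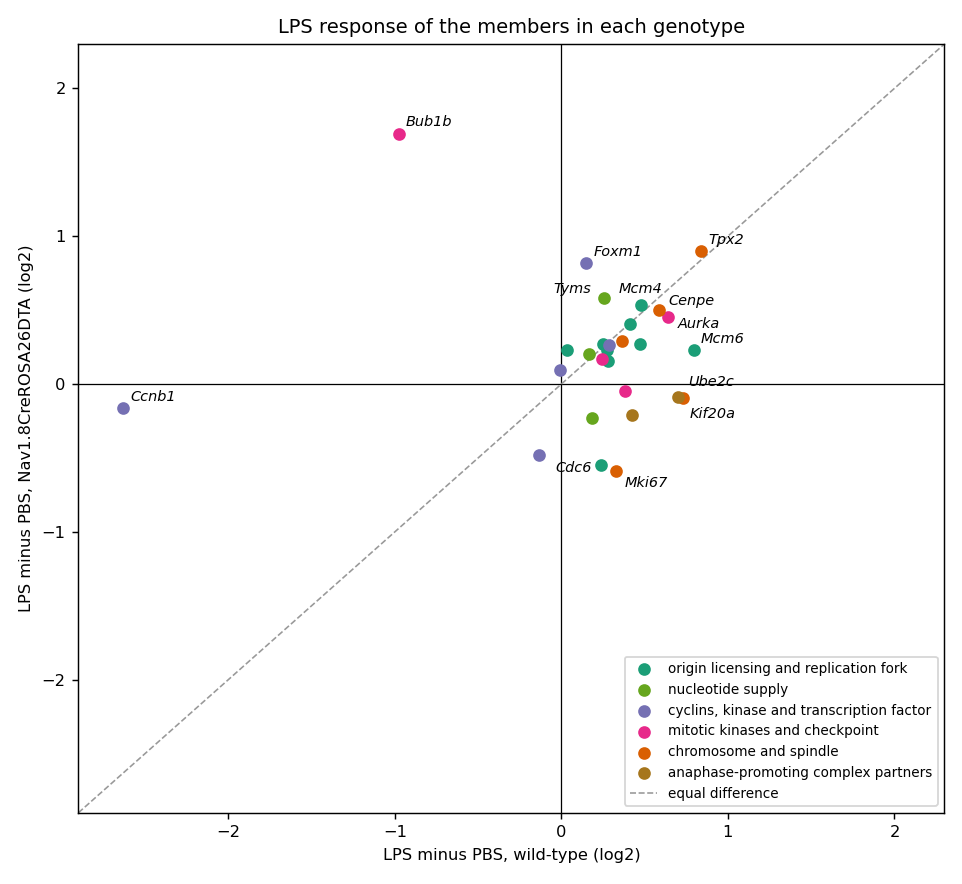
LPS minus PBS (log2) in wild-type on the x axis and in Nav1.8CreROSA26DTA on the y axis for the 28 genes well above background on all 4 arrays, coloured by role, with a dashed line where both differences are equal. Most replication genes lie above 0 on both axes near the line, and Ccnb1 (−2.63 and −0.16) and Bub1b (−0.98 and 1.69) lie far from it.

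Nav1.8CreROSA26DTA was then compared with wild-type. Averaged over both injections, 0 of the 30 tested genes were higher and 0 lower in limma's test, beside 0.304% and 0.105% of all genes. At an unadjusted p under 0.05, limma picked 8 of the 30, against 10.2% of all genes. The median difference was 0.28, beside 0.02 over all genes tested. With normexp it was 0.16, beside 0.02 over all genes tested. Of these 30, Top2a was included only through its signal in Nav1.8CreROSA26DTA, so its difference follows in part from the filter. Among the 28 genes measured on every array, both Nav1.8CreROSA26DTA arrays lay above both wild-type arrays in 8 (16% of all genes) and below them in 0 (12.9%). The 8 were Rrm2, Ccna2, Foxm1, Plk1, Birc5, Kif20a, Mki67 and Ube2c, which act from S phase to mitosis, and none of the 9 licensing and fork genes was among them.

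Top2a, which encodes topoisomerase II alpha, the enzyme that untangles replicated chromosomes, differed most. Its scaled signals were 33.0 in Nav1.8CreROSA26DTA PBS and 31.3 in Nav1.8CreROSA26DTA LPS, while the 6.0 in wild-type PBS and 10.1 in wild-type LPS were not well above background. Against the higher of its own dim signal and the lowest signal well above background on the array, it was at least 3.62-fold higher in Nav1.8CreROSA26DTA over both injections, at least 4.31-fold after PBS and at least 3.04-fold after LPS. The fit on the measured signals gave a log2 difference of 2.05 and an adjusted p of 0.0713 (limma), and the difference was 0.50 with normexp and 1.43 as the mean of both probes. Its other probe was well above background only in wild-type LPS, at 12.2, and so did not show the same order of arrays. Mki67, the proliferation marker Ki-67, was at 29.7 in wild-type PBS, 84.9 in Nav1.8CreROSA26DTA PBS, 37.2 in wild-type LPS and 56.4 in Nav1.8CreROSA26DTA LPS. The Nav1.8CreROSA26DTA arrays were the higher ones after either injection, by 1.52 with PBS and 0.60 with LPS (averaged 1.06 ± 0.28, limma adjusted p = 0.174, and 0.47 with normexp). Ube2c, the ubiquitin-conjugating enzyme of the anaphase-promoting complex, was at 11.5, 28.7, 18.6 and 27.0 in the same order and differed by 1.32 with PBS and 0.53 with LPS (averaged 0.93 ± 0.35, limma adjusted p = 0.398, and 0.24 with normexp). Its log2 level in wild-type PBS, −5.75, was close to the lowest level well above background on that array, −6.33. The signals of Top2a, Mki67 and Ube2c are of the size of the normexp offset of 50 or smaller. The offset by itself therefore shrinks their differences.

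Foxm1 was at 35.8 in wild-type PBS, 55.9 in Nav1.8CreROSA26DTA PBS, 39.7 in wild-type LPS and 98.4 in Nav1.8CreROSA26DTA LPS. It too was higher on both Nav1.8CreROSA26DTA arrays, by 0.64 with PBS and 1.31 with LPS (averaged 0.98 ± 0.25, limma adjusted p = 0.163, and 0.47 with normexp), although its other probe was not well above background on any array. Rrm2, at 96.0, 166, 109 and 141 in the same order, differed by 0.79 with PBS and 0.37 with LPS (averaged 0.58 ± 0.18, limma adjusted p = 0.263, and 0.36 with normexp). Ccna2, whose product pairs with CDK in S phase and G2, was at 42.1, 60.1, 41.8 and 64.3, so that the injection made little difference and the genotypes stood apart (averaged 0.57 ± 0.23, limma adjusted p = 0.433, and 0.29 with normexp). Its other probe was well above background only on the 2 Nav1.8CreROSA26DTA arrays. Birc5 (averaged 0.50 ± 0.16) and Plk1 (0.46 ± 0.16) had adjusted p from limma of 0.288 and 0.333, and Kif20a and Tpx2 both had averages of 0.54.

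By role, the averaged genotype difference had a median of 0.06 in the licensing and fork genes and 0.05 in the cyclin group. The median was 0.29 in the nucleotide supply genes and 0.46 in the 5 mitotic kinases and checkpoint genes tested, each with a difference above 0. Among these 5, Bub1b averaged 0.54 ± 0.54, from −0.80 after PBS and 1.87 after LPS. Aurkb averaged 0.41 ± 0.38 and Aurka 0.07 ± 0.15, so the sign of these genes is not firm. The median was 0.54 in the 6 chromosome and spindle genes tested, each above 0, and 0.50 in the 2 partners of the anaphase-promoting complex. Over all genes tested, 9516 of 17132 were above 0. Top2a is among the 6 and passed the filter only through Nav1.8CreROSA26DTA, which favours a value above 0. No difference between these role groups was tested. Mcm4 (−0.10), Pcna (0.01) and Mcm5 (0.05) were among the fork genes closest to 0 between genotypes, though Pcna turned sign with cyclic loess and with the value table. Mcm6 differed by 0.54 after PBS and by −0.03 after LPS.

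Within an injection, among genes well above background on both arrays, which leaves out Top2a and its bounds given above, 2 of 29 genes were at least 2-fold higher in Nav1.8CreROSA26DTA after PBS, Mki67 and Ube2c (1.21% of all genes), and 1, Ccnb1, was lower (0.415%). After LPS, 2 of 28 were higher, Foxm1 and Bub1b (0.829%), and 0 were lower (0.369%). The median genotype difference was 0.30 after PBS and 0.18 after LPS, beside 0.04 and 0.00 for all genes. It was above 0 after both injections in 16 of the 28 genes measured on every array (31.8% of all genes) and below 0 after both in 2 (24%), Mcm4 and Ccnb2. Wild-type PBS was the lowest of the 4 arrays in 19 of the 28 (25% of all genes), among them each of the 5 chromosome and spindle genes measured on every array. That array is the control of both the LPS response in wild-type and the genotype difference after PBS, so these 2 comparisons are not independent. It also enters both averaged effects, whose medians over the 30 tested genes were 0.27 for LPS and 0.28 for genotype. Without wild-type PBS these medians were 0.15 and 0.12, and without Nav1.8CreROSA26DTA LPS 0.16 and 0.13. Without Nav1.8CreROSA26DTA PBS they were 0.45 and 0.41, and without wild-type LPS 0.37 and 0.42. Nav1.8CreROSA26DTA LPS was the highest array in 14 of the 28 (25.3%) and the lowest in 2 (29.7%), and Nav1.8CreROSA26DTA PBS was the highest in 7 (34.4%) and the lowest in 4 (21.8%).

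**Figure D3:**
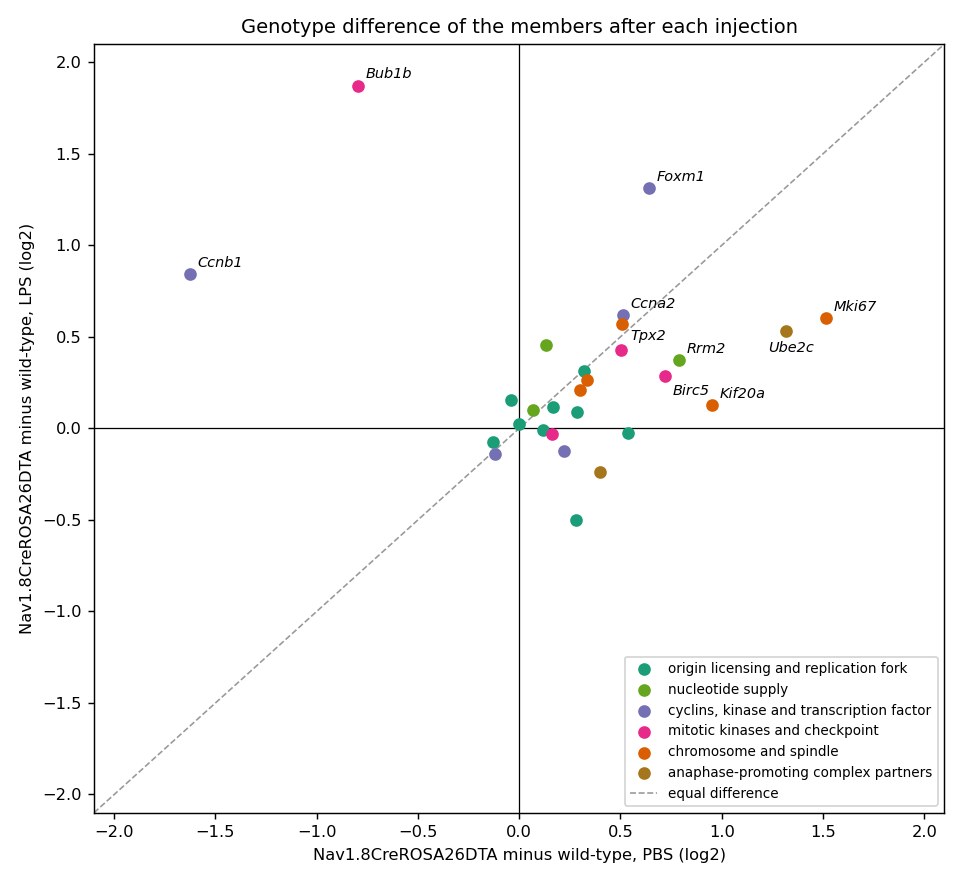
Nav1.8CreROSA26DTA minus wild-type (log2) after PBS on the x axis and after LPS on the y axis for the same 28 genes, coloured by role, with a dashed line where both differences are equal. Mki67 (1.52 and 0.60), Ube2c (1.32 and 0.53) and Foxm1 (0.64 and 1.31) lie above 0 on both axes. The licensing and fork genes lie closer to the origin than these, Mcm6 (0.54 and −0.03) and Cdc6 (0.28 and −0.50) the farthest of them. So do some mitotic genes such as Aurka (0.16 and −0.03). Bub1b and Ccnb1 lie on the other side of 0 after PBS.

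The difference of the LPS responses, Nav1.8CreROSA26DTA minus wild-type, has no replicate error and was not tested. Of 28 genes, 2 had a difference of at least 2-fold upward, Bub1b and Ccnb1 (0.967% of all genes), and 0 downward (1.53%), and the median was −0.07, beside −0.03 for all genes. Bub1b, the spindle checkpoint kinase BUBR1, was at 28.8 in wild-type PBS, 16.6 in Nav1.8CreROSA26DTA PBS, 14.6 in wild-type LPS and 53.6 in Nav1.8CreROSA26DTA LPS. The Nav1.8CreROSA26DTA LPS array was the high one, so the LPS response was −0.98 in wild-type and 1.69 in Nav1.8CreROSA26DTA, a difference of 2.67, and limma's averaged effects were 0.36 ± 0.54 for LPS and 0.54 ± 0.54 for genotype. In Ccnb1 the difference of 2.47 came from the high wild-type PBS array. Mki67 had the lowest difference, −0.92, followed by Kif20a at −0.82, Ube2c at −0.79 and Cdc6 at −0.78. The checkpoint target Cdc20, activator of the anaphase-promoting complex, was at 106, 140, 142 and 121 in the order wild-type PBS, Nav1.8CreROSA26DTA PBS, wild-type LPS and Nav1.8CreROSA26DTA LPS, a difference of −0.64. Its 2 probes gave LPS differences of 0.42 and 0.45 in wild-type, and of −0.21 and −0.10 in Nav1.8CreROSA26DTA.

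Other genes of the cycle were read from 4 lists, whose counts stand beside 5.62% of all genes that rose with LPS and 4.54% that fell. Of 36 further replication genes tested, 2 rose with LPS and 0 fell, with a median of 0.20. Timeless, of the fork protection complex, rose by 1.15 ± 0.13 (limma adjusted p = 0.000432), from 362 and 253 after PBS in wild-type and Nav1.8CreROSA26DTA to 730 and 618 after LPS. Pole, the catalytic subunit of DNA polymerase epsilon, rose by 0.79 ± 0.17 (adjusted p = 0.0188), from 116 and 104 to 176 and 203. Pole lost its call with any 1 array left out (adjusted p of 0.0821 to 0.300), and Timeless without Nav1.8CreROSA26DTA PBS (0.0507) or without wild-type LPS (0.0727). Of 44 further mitosis genes tested, 0 rose and 1 fell with LPS, with a median of 0.15. The 1 was Cdc25b, the phosphatase that activates CDK1, at −0.40 ± 0.10 (limma adjusted p = 0.0310), and its call was lost with any 1 array left out, with values from −0.66 without wild-type LPS to −0.14 without Nav1.8CreROSA26DTA LPS, and was −0.08 as the mean of all its probes (adjusted p = 0.798).

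The gene of these 4 lists with the largest change after LPS was an inhibitor of the cycle. Cdkn1a, the CDK inhibitor p21, rose by 2.22 ± 0.10 (limma adjusted p = 2.05e-06), from 402 and 410 after PBS in wild-type and Nav1.8CreROSA26DTA to 1926 and 1864 after LPS. Its call held with each array left out, at 2.20 to 2.25, and its mean over all probes was 1.16 (adjusted p = 0.0240). Of the 24 inhibitor and p53 target genes tested, 4 rose and 1 fell, with a median of −0.01. The others that rose were Pmaip1 (Noxa, a proapoptotic p53 target, 1.19), Gadd45g (a stress sensor, 0.41) and Sesn1 (sestrin 1, 0.38), and Cdkn2b, the CDK4/6 inhibitor p15, fell by 1.43 on the log2 scale. Gadd45g and Sesn1 lost their call in limma with any 1 array left out, Pmaip1 without either LPS array, and Cdkn2b without each array but wild-type PBS. Of 27 G1 cyclin, kinase and E2F/Rb genes, 2 rose and 0 fell, with a median of 0.01. Myc, a transcription factor of growth, rose by 1.30 ± 0.21 (adjusted p = 0.00387) and Ccnd1, cyclin D1, by 0.66 ± 0.10 (adjusted p = 0.00310). Myc lost its call without each array but wild-type LPS (adjusted p of 0.0731 to 0.143), and Ccnd1 without each but Nav1.8CreROSA26DTA LPS (0.0638 to 0.109).

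Between genotypes, 1 gene of these 4 lists passed limma's test, beside 0.304% of all genes higher and 0.105% lower. Nuf2, a kinetochore gene, was at 52.1 in wild-type PBS, 142 in Nav1.8CreROSA26DTA PBS, 50.3 in wild-type LPS and 104 in Nav1.8CreROSA26DTA LPS, and was higher by 1.25 ± 0.20 (limma adjusted p = 0.0471). The call was lost with any 1 array left out (adjusted p of 0.879 or more), where no gene of the whole array passed for genotype. The list medians were 0.04 for further replication genes, 0.06 for further mitosis genes, 0.05 for G1 genes and 0.01 for inhibitors.

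**Figure D4:**
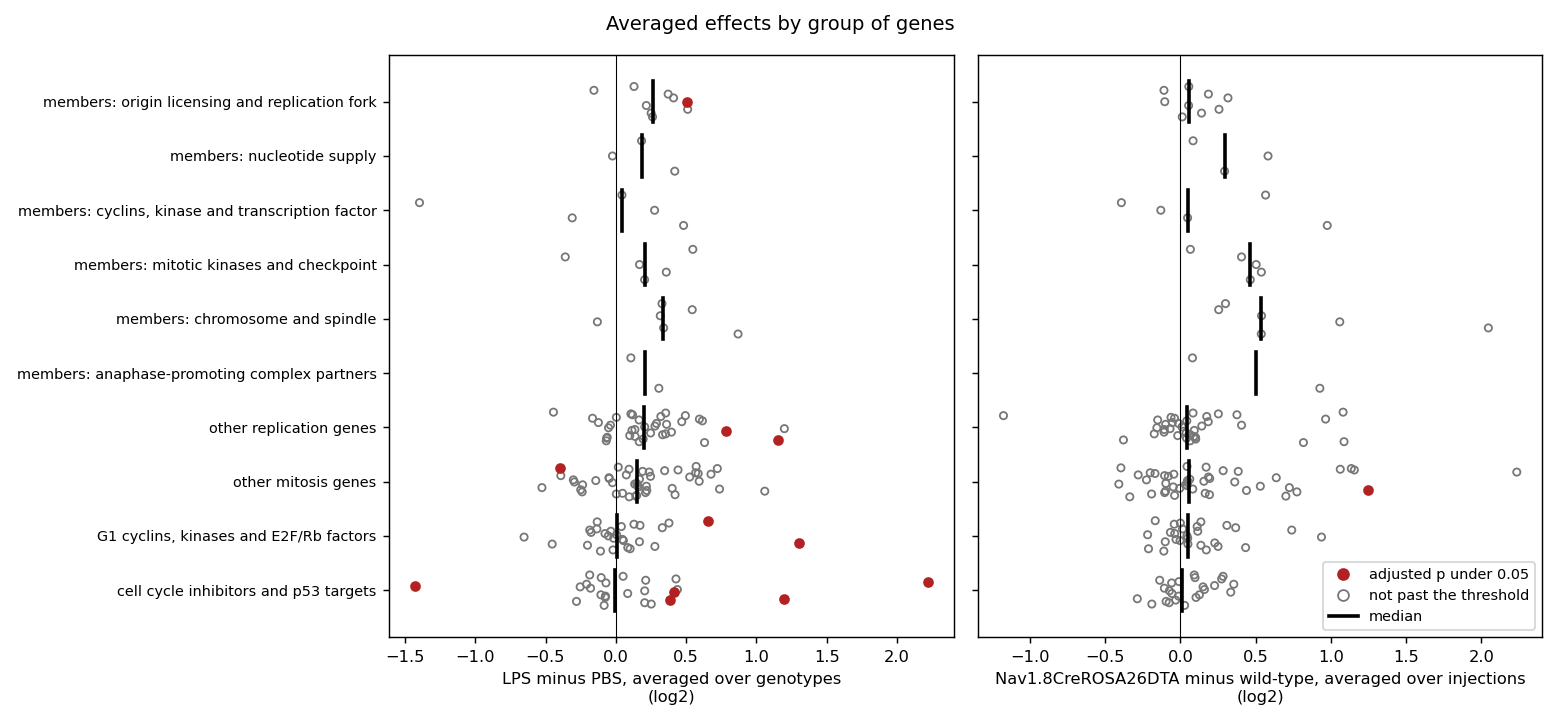
Averaged effects of LPS (left) and of genotype (right) on the log2 scale, 1 point per tested gene, for the 34 genes split by role and for 4 further lists, with filled points past limma's adjusted p of 0.05 and a bar at each median. Mcm4 is the filled point among the 34 genes on the left, Cdkn1a (2.22) is the farthest filled point to the right, and Nuf2 (1.25) is the filled point on the right panel.

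Markers of cells that may divide, or that may enter with blood, moved with some of these comparisons, and their part in the results was not tested. No gene of any marker list passed limma's test for genotype. Oligodendrocyte precursor markers had 13 of 15 averaged genotype differences above 0 (9516 of 17132 over all genes) and a median of 0.37, with summed signals of 16006 in wild-type PBS and 19886 in Nav1.8CreROSA26DTA PBS, and of 11848 and 15231 after LPS. With LPS, 7 of the 15 fell, among them Gpr17 and Cspg4, and 1, Ccnd1, rose (4.54% and 5.62% of all genes). Neural progenitor and neuroblast markers had a genotype median of 0.03 over 15 tested genes, Eomes and Draxin not being well above background on any array, and Hes5 and Tubb3 were among the genes that fell with LPS. Their summed signals were 16918 and 18833 after PBS in wild-type and Nav1.8CreROSA26DTA, and 12618 and 11672 after LPS.

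Several lists of blood cell markers also had higher medians in Nav1.8CreROSA26DTA PBS than in wild-type PBS. Neutrophil and marrow precursor markers had a genotype median of 1.24 after PBS over 12 genes and 0.27 after LPS over 14, with S100a8 and S100a9 higher by 4.29 and 4.39 after PBS. Their summed signals went the other way after PBS, 41496 in wild-type and 33451 in Nav1.8CreROSA26DTA, and were 63097 and 78224 after LPS, and Cxcr2 and Fcnb were not well above background on any array. Lymphocyte markers had 10 of 11 averaged genotype differences above 0 (9516 of 17132 over all genes) and a median of 0.52, with summed signals of 538 and 872 after PBS and 659 and 779 after LPS, and Cd3g and Ms4a1 were not well above background. Erythroid markers summed to 46194 and 225068 after PBS and to 83688 and 121780 after LPS, and Gata1 was not well above background on any array. Fibroblast and meningeal markers had a genotype median of 0.83 after PBS and −0.04 after LPS, with sums of 93055 and 135856, then 103384 and 103471. Microglial and macrophage markers had a genotype median of 0.35 after PBS, with 17 of 18 above 0, and of −0.15 after LPS, with 6 of 18 above 0. Endothelial markers had a median of 0.23 after PBS, with 14 of 16 above 0, and of −0.16 after LPS, with 4 of 16 above 0. Over all genes, 9532 of 16627 were above 0 after PBS and 8397 of 16520 after LPS.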

How the data were processed

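The deposited intensities are background-subtracted, detrended spot signals of Agilent Feature Extraction, unscaled between arrays, per the file headers; these name version 12.0.3.1, whereas the submitters' processing notes name 11.0.1.1. The deposited value table, also a linear intensity, equalled each array's signal times 1 factor (1.57 to 2.09), and how it was chosen is not stated by labels or headers; its column medians were 97.2, 91.4, 103 and 102. The authors deposited flags (other) for background, saturation and outliers, and spots marked as outliers (81 to 96 per array) were left out.

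Values were log2 of the signal minus the array's 75th percentile (612, 514, 634 and 726 for wild-type PBS, Nav1.8CreROSA26DTA PBS, wild-type LPS and Nav1.8CreROSA26DTA LPS). Probes (33767 of 56605) were named by RefSeq accession. Genes well above background on at least 2 arrays (17132) were fitted in limma 3.58.1 (R 4.3.3) on genotype and agent with an intensity trend, two-sided, Benjamini-Hochberg adjusted, threshold 0.05. The fit leaves 1 residual degree of freedom and borrows 7.99 from other genes, so p-values say nothing of variation from animal to animal, and a true difference of responses counts as error. Scripts were tested on simulated data. The number of arrays limits the precision.

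The 34 genes, the 4 further lists and the marker lists were chosen with earlier results of these data known. All 34 were eligible to be named, and of each other list the genes past the threshold, at most 8. Array values were given for genes past the threshold or 2-fold apart in any pair, and for others near them. Alternatives were scaling to the median, cyclic loess, the value table, normexp background with an offset of 50, other filters, the mean of a gene's probes and no trend. Each array was also left out, with a model of the tested factor alone, in which a lone array is assumed to vary like the others. Some genes of the marker lists are not reported here.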

Additional observations from a re-analysis of the deposited data

Results flagged for a closer look

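Some of the 28 genes measured on every array had responses of at least 0.1 (log2) in opposite directions under the same contrast. With 1 array per group no such difference was tested, and none has a replicate check.

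Bub1b differed most, with an LPS response of −0.98 in wild-type and 1.69 in Nav1.8CreROSA26DTA, a difference of 2.67, and a genotype difference of −0.80 after PBS and 1.87 after LPS. Ccnb1 had genotype differences of −1.62 after PBS and 0.84 after LPS, which lie 2.47 apart. Mki67 responded to LPS by 0.33 in wild-type and −0.59 in Nav1.8CreROSA26DTA, a difference of −0.92. Cdc6 responded by 0.23 and −0.55, a difference of −0.78, and its genotype difference was 0.28 after PBS and −0.50 after LPS. Cdc20 responded by 0.42 and −0.21, a difference of −0.64, with genotype differences of 0.40 and −0.24. Rrm2 responded by 0.18 and −0.23, a difference of −0.42. Ccne1 had genotype differences of 0.22 after PBS and −0.12 after LPS, a difference of −0.35.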

How the results depend on the processing

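No paired analysis was possible because the labels give no replicate numbers and each group holds 1 array. The planned normexp background on mean spot signals was not run, and normexp on median spot signals, chosen after seeing the data, was run in its place. Across 476 tests of the 30 genes under other settings of scaling, background, filter, probe and trend, 16 differences turned sign and 19 calls were gained or lost, and over 240 tests with 1 array left out, 42 turned sign, 1 call was gained and 4 were lost. Genes of the 34 called higher with LPS numbered 1, against 2 with median scaling (Mcm6 joined), 4 with the value table (Mcm6, Aurka and Cenpe joined), 3 with normexp (Mcm6 and Aurka), 4 without the filter and 0 without the trend, or 0 to 1 with an array left out. Those called lower numbered 0, against 1 with median scaling (Ccnb1), 2 with normexp and 2 without the filter (Ccnb1 and Ccne1). The LPS median of 0.27 was 0.0597 with normexp (−0.0612 over all genes tested) and 0.15 to 0.45 with an array left out. For genotype, genes called higher numbered 0, against 1 with median scaling (Top2a, adjusted p = 0.0274 in limma) and 3 without the filter (Top2a, Mki67 and Foxm1), and the median of 0.28 was 0.12 to 0.42 with an array left out. Of genes at least 2-fold apart, the LPS response in wild-type had 1 higher and 0 lower with the mean of all probes, and 2 lower with median scaling or without the filter. In Nav1.8CreROSA26DTA it had 0 higher with normexp and 1 lower without the filter. The genotype difference after PBS had 0 higher and 0 lower with normexp, 4 higher and 2 lower without the filter, and 0 lower with the mean of probes. After LPS it had 0 higher with normexp, 4 without the filter, and 1 higher and 1 lower with the mean of probes. The difference of the LPS responses had 0 upward with normexp and 1 downward with cyclic loess or the mean of probes. Over all genes, LPS calls were 963 higher and 777 lower, against 939 and 433 with cyclic loess, 1043 and 433 with the value table, 963 and 1292 with median scaling, 1016 and 1165 with normexp, 1583 and 1567 without the filter, 812 and 496 with the mean of probes, and 382 and 48 without the trend. Genotype calls were 52 and 18, against 15 and 4, 20 and 8, 166 and 31, 258 and 125, 654 and 304, 11 and 1, and 0 and 0 in the same order. The cause was not tested, except that leaving out an array leaves fewer samples and dropping the filter adds dim probes. The normexp offset of 50 also shrinks differences of dim genes, so low counts of genes 2-fold apart with normexp follow in part from that setting. Signals near background limit Top2a, Kif20a, Ube2c, Tpx2, Aurkb, Bub1b and Ccnb1.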
